A study of Mus musculus with 4 samples.

Results

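The AP-1 family immediate-early factors were measured in pachytene spermatocytes purified from mouse testis, the germ cells in the long stage of meiotic prophase in which homologous chromosomes are paired. The family was taken as 10 genes by symbol, Fos, Fosb, Fosl1, Fosl2, Jun, Junb, Jund, Atf3, Batf and Maff, and all 10 were found among the 50763 genes of the table. Polyadenylated RNA was sequenced from 2 libraries of Hsf5 knockdown mice and 2 libraries of wild-type (WT) mice, all labelled as meiotic cells. The labels call the replicates biological but name neither animals, ages, strain nor the way the knockdown was made, and p-values therefore measure only the spread between these libraries. The 10 genes were chosen by their counts in these same libraries, among them the knockdown over WT difference and the gap between the WT replicates. Their differences between the groups and between the WT replicates are therefore given as a description, without a test.

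AP-1 is a transcription factor made of pairs of proteins that hold together through a leucine zipper and touch DNA with a basic region. FOS proteins pair with JUN proteins, whereas JUN proteins can also pair among themselves, and ATF, BATF and small MAF proteins join with some of them. Several of these genes are immediate-early genes: quiet in resting cells, they are transcribed within minutes of a growth factor, a cytokine, cell damage or the handling of tissue, through kinases and factors that are already present. In testis they are known from somatic cells such as Sertoli and Leydig cells as well as from germ cells.

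The total counts were 42479164 and 33947608 in knockdown replicates 1 and 2, and 39331933 and 33287428 in WT replicates 1 and 2. Levels are TMM-scaled CPM, and fold changes are those of edgeR's fit over 23594 genes. Hsf5, the targeted gene, stood at 287 and 238 CPM in the knockdown libraries and at 586 and 449 CPM in the WT libraries, a log2 fold change of -0.98 (SE 0.31; edgeR quasi-likelihood test with Benjamini-Hochberg adjustment, adjusted p = 0.0217), and that call was lost with library totals as the only scaling (-0.55, adjusted p = 0.115), without WT replicate 1 (-0.79, adjusted p = 0.219) and without WT replicate 2 (-1.13, adjusted p = 0.0725). Of 10 markers of the labelled cell type, all present in every library, 7 were lower in the knockdown at an adjusted p under 0.05 (edgeR), 1 was higher and 2 did not pass, against 33.5% lower and 27.4% higher of all genes tested. The higher one, named after its values were seen, was Sycp1, of the synaptonemal complex, at 661 and 576 CPM in the knockdown libraries and 297 and 215 CPM in the WT libraries. The 10 markers summed to 2427 and 2127 CPM in the knockdown libraries and to 10070 and 9290 CPM in the WT libraries. Ldhc, a germ cell lactate dehydrogenase, had 279 and 188 CPM of these sums in the knockdown libraries and 5279 and 4330 CPM in the WT libraries. Markers of Sertoli cells, the supporting cells of the tubule, summed to 4874 and 5551 CPM in the knockdown libraries and to 296.5 and 609.9 CPM in the WT libraries, and those of Leydig cells, the steroid-producing cells between the tubules, to 1795 and 3364 CPM in the knockdown libraries and to 134 and 878 CPM in the WT libraries. In bulk RNA such as this, fewer cells of a type and less RNA per cell cannot be told apart.

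RefSeq start windows, which run from 250 bases before to 50 bases after an annotated start in GRCm38.p6 (the counts were made on mm39), were found for 9 of the 10 genes, in 11 windows, and not for Fosl1. They are shown for 5 genes because these windows hold letters that members of the same protein class are known to bind. Fos, Jun, Atf3 and Maff, at 18.2 CPM or more in the knockdown libraries, can thus be set beside Batf. In the WT libraries Maff was low as well, at 0.894 and 0.765 CPM. Each is written 5′ to 3′ on the strand of its gene, and capitals mark a match, on either strand, to TGACGT, the core of a cyclic AMP response element, or to TGACNTCA, the full element with 1 free base. The windows are those of Fos on the plus strand (chr12:85473640-85473939), Jun on the minus strand (chr4:95052173-95052472), Atf3 on the minus strand (chr1:191183284-191183583), Maff on the plus strand at 1 of its 3 annotated starts (chr15:79347270-79347569) and Batf on the plus strand (chr12:85686470-85686769).
Fos: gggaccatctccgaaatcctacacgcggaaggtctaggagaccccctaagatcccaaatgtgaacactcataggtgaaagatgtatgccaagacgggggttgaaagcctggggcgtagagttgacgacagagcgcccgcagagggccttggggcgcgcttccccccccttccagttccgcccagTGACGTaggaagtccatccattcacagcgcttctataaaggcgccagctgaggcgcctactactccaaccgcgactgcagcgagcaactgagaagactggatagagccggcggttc
Jun: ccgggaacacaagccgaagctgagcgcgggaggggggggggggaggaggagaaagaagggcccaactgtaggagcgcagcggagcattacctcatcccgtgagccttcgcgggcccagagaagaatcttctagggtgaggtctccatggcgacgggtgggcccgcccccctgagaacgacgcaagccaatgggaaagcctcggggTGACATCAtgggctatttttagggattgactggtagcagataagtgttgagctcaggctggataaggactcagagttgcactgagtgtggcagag
Atf3: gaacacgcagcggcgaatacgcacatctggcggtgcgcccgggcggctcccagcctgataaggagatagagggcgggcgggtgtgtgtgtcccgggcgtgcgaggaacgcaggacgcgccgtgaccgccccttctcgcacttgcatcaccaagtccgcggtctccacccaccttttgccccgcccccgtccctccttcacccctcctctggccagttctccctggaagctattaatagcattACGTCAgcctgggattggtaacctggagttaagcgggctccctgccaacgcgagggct
Maff: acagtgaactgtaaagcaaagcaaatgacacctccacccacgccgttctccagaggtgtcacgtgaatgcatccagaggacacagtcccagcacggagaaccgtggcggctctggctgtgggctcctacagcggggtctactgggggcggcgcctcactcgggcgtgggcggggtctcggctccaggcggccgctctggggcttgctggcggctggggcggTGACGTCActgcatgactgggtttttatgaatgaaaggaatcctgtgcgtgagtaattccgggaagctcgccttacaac
Batf: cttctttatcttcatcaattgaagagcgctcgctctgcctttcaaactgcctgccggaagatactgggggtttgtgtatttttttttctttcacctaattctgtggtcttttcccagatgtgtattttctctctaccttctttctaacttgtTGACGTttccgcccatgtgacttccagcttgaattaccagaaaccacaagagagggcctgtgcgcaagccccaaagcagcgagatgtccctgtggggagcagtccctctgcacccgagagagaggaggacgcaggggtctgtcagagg

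TGACGT was present in windows of 4 of the 9 genes, Fos, Atf3, Batf and Maff, and in 7.51% of all 32851 windows of the same length. TGACNTCA, whose matches overlap those of TGACGT where the free base is G, was present in windows of Jun and Maff, 3 windows in all, and in 8.83% of all windows. Counted from the start, with negative positions before it, the match began at -45 in Jun, -66 in Fos, -98 in Batf, -29 in Maff and -8 in Atf3, where it lay on the reverse strand. TGANTCA, the usual AP-1 site, was present in none of the 11 windows and in 7.81% of all, and neither were the CArG box, bound by serum response factor (1.63% of all windows), or the heat shock element, bound by heat shock factors (0.603% of all). Letters farther from a start than these windows reach were not searched. The counts therefore do not show that a gene, Fos included, lacks a CArG box or another of these elements there. A match is a run of letters, not a measured site. Batf, whose window holds the same TGACGT as that of Fos, had less than 1 CPM in every library.

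Among the FOS-type genes, Fos, which encodes the founding FOS protein, stood at 437 and 770 CPM in knockdown replicates 1 and 2, and at 22.4 and 95.7 CPM in WT replicates 1 and 2. Fosb, a close relative with its own activation domain, stood at 785 and 729 CPM in the knockdown libraries and at 23.4 and 71.1 CPM in the WT libraries. In both genes each knockdown library lay above each WT library, and WT replicate 2 lay well above WT replicate 1. The fitted log2 fold changes were 3.35 (SE 0.63) for Fos, about 10.2-fold, and 4.002 (SE 0.52) for Fosb. They depended on the WT library used: without WT replicate 1 they were 2.64 for Fos and 3.40 for Fosb, and without WT replicate 2 they were 4.77 and 5.04.

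Fosl2, which encodes a FOS-related protein without the strong activation domain of FOS, stood at 71.0 and 50.6 CPM in the knockdown libraries and at 1.31 and 1.98 CPM in the WT libraries. The groups were far apart, with the lower knockdown library 25.5-fold above the higher WT library, and the fitted log2 fold change was 5.21 (SE 0.44). Fosl1, its nearest relative, had 29 and 18 counts in the knockdown libraries and 17 and 11 counts in the WT libraries, or 0.614 and 0.436 CPM against 0.507 and 0.382 CPM. Its groups overlapped, with a fitted log2 fold change of 0.24 (SE 0.73), and at so few counts a small difference was not detectable. A rise as large as that of Fosl2 was not seen.

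Of the JUN-type genes, Jun, the partner of most FOS proteins, stood at 494 and 637 CPM in the knockdown libraries and at 36.4 and 95.6 CPM in the WT libraries. Junb, which in many cells is induced along with Fos and tempers Jun, stood at 539 and 476 CPM in the knockdown libraries and at 14.5 and 50.5 CPM in the WT libraries. Jund, the JUN gene least dependent on stimulation, stood at 541 and 403 CPM in the knockdown libraries and at 37.1 and 47.3 CPM in the WT libraries. No JUN-type gene had overlapping groups, and their fitted log2 fold changes were 3.10 (SE 0.47), 3.97 (SE 0.55) and 3.48 (SE 0.34) in that order. Without WT replicate 2 that of Jun was 3.98 and that of Junb was 5.15, and without WT replicate 1 they were 2.55 and 3.31. The WT replicates of Jun and Junb differed as those of Fos did, whereas those of Jund were close.

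Atf3, a stress-induced factor that pairs with JUN proteins, stood at 95.1 and 41.3 CPM in the knockdown libraries and at 1.01 and 2.09 CPM in the WT libraries. Maff, a small MAF protein that lacks an activation domain, stood at 48.3 and 18.2 CPM in the knockdown libraries and at 0.894 and 0.765 CPM in the WT libraries. In these 2 genes the knockdown replicates differed from each other more than in the other members, with replicate 1 the higher, and all knockdown libraries lay far above the WT libraries. The fitted log2 fold changes were 5.46 (SE 0.58) for Atf3, about 44.2-fold, and 5.32 (SE 0.60) for Maff, about 39.9-fold. Without knockdown replicate 1 they were 4.804 and 4.53, and without WT replicate 2 that of Atf3 was 6.09. Batf, a factor best known from lymphocytes, had 28 and 20 counts in the knockdown libraries and 8 and 2 counts in the WT libraries, a fitted log2 fold change of 1.76 (SE 0.85) on very few reads, and of 2.88 without WT replicate 1.

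**Figure D1:**
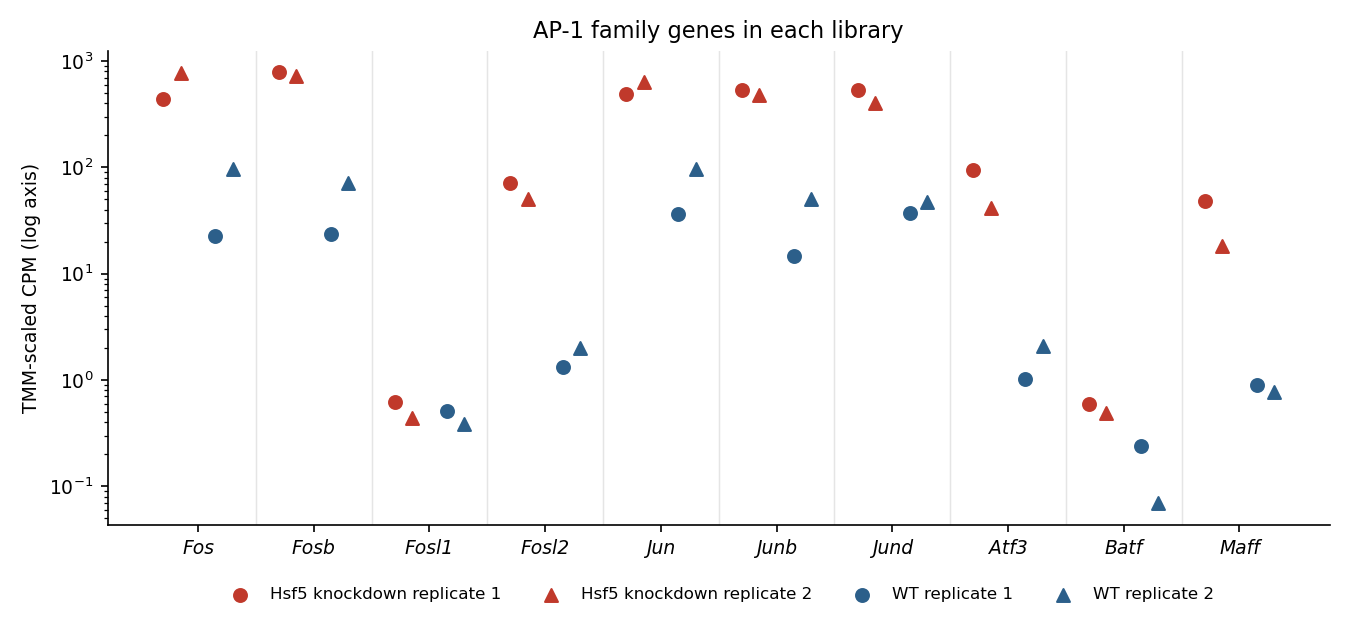
TMM-scaled CPM on a log axis for each of the 10 genes, with red points for the Hsf5 knockdown libraries and blue points for the WT libraries, and circles for replicate 1 and triangles for replicate 2. In 9 genes both knockdown points lie above both WT points, Fosl1 overlaps, and the WT triangles of Fos, Fosb, Jun and Junb lie above the WT circles.

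All 10 genes passed the filter on low counts, Batf only through its knockdown libraries. Of the 10, 8 were past an adjusted p of 0.05 in the fit over all genes, all of them higher in the knockdown, and 27.4% of all genes tested were higher at that threshold. In 9 of 10 both knockdown libraries lay above both WT libraries and in 0 of 10 below, where 39% of all genes tested lay above and 43.7% below. The median log2 fold change of the 10 was 3.72 and that of all genes -0.12. These counts describe genes that were chosen with the values known. Their summed counts made up 0.335% and 0.38% of the knockdown libraries, and 0.0118% and 0.0316% of the WT libraries. These are shares of the library totals, without TMM scaling.

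Per kilobase of exon, the levels of the members spanned a wide range within each library. In the knockdown libraries Jund was at 324 and 242 CPM per kb, ranks 52 and 49 among 36310 genes with a known length, and Fos was at 186 and 327 CPM per kb, ranks 156 and 22. In the WT libraries Jund was at 22.2 and 28.4 CPM per kb, ranks 3227 and 2451, and Fos was at 9.53 and 40.7 CPM per kb, ranks 5694 and 1727. Jund thus led the members per length in knockdown replicate 1 and WT replicate 1, and Fos in knockdown replicate 2 and WT replicate 2. Junb came to 234 and 207 CPM per kb in the knockdown libraries and to 6.32 and 21.9 CPM per kb in the WT libraries, and Jun to 155 and 199.6 CPM per kb in the knockdown libraries and to 11.4 and 30.0 CPM per kb in the WT libraries. Fosb, a longer transcript, reached 126 and 117 CPM per kb in the knockdown libraries and 3.75 and 11.4 CPM per kb in the WT libraries. Fosl1 and Batf stayed below 0.5 CPM per kb in every library.

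The mix of FOS and JUN transcripts is given as shares of summed levels per kb. Fos made up 58.2% and 72.8% of the summed FOS-type level per kb in the knockdown libraries and 69.7% and 77.6% in the WT libraries. Fosl2 made up 2.3% and 1.16% of that sum in the knockdown libraries and 0.991% and 0.39% in the WT libraries. Within the JUN-type sum, Junb took 32.9% and 31.9% in the knockdown libraries and 15.8% and 27.3% in the WT libraries, so that its share was higher in both knockdown libraries, while the shares of Jun and Jund overlapped between the groups. Jund took 45.4% and 37.3% in the knockdown libraries and 55.6% and 35.3% in the WT libraries. The summed FOS-type level was 0.447 and 0.694 times the summed JUN-type level per kb in the knockdown libraries, and 0.342 and 0.653 times in the WT libraries.

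**Figure D2:**
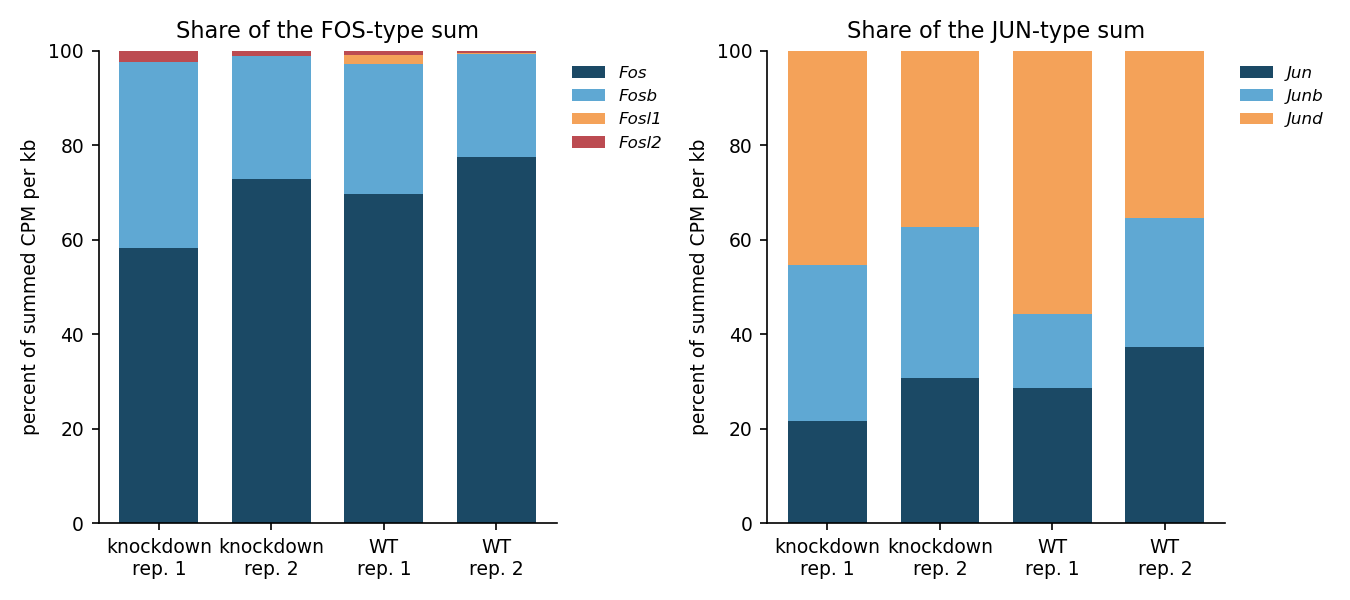
Stacked bars give, for each library, the percent of the summed CPM per kb of the FOS-type genes (left) and of the JUN-type genes (right) that each gene contributes. Fos makes up 58.2% to 77.6% of the FOS-type sum, and Junb has its smallest share, 15.8%, in WT replicate 1.

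Relative to WT replicate 1, WT replicate 2 had 4.27 times the level of Fos, 3.47 times that of Junb, 3.03 times that of Fosb and 2.63 times that of Jun. The level in WT replicate 2 was 2.06 times that in WT replicate 1 for Atf3, 1.51 times for Fosl2, 1.28 times for Jund and 0.855 times for Maff. Fosl1 and Batf, at 2 to 17 counts in the WT libraries, were lower in replicate 2. With 0.5 CPM added to each level, 4 of the 10 were at least 2-fold higher in WT replicate 2, as were 5.88% of all genes tested, and 7 of the 10 were higher there by any amount, as were 46.9% of all. In the knockdown, 2 of the 10, Fos and Jun, were higher in replicate 2, against 47.7% of all genes tested. Fos was 1.76 times as high in knockdown replicate 2 as in replicate 1, whereas Atf3 was 0.435 times and Maff 0.377 times as high there, and the 2 last were at least 2-fold higher in replicate 1, as were 2.78% of all genes tested.

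Marker genes of other testis cells also differed between the replicates. For the 10 Leydig cell markers the median of the log2 ratios, replicate 2 over replicate 1, was 0.98 in the knockdown and 2.85 in WT, and Cyp17a1, a steroid-synthesising enzyme, stood at 372 and 837 CPM in the knockdown libraries and at 34.3 and 243 CPM in the WT libraries. For the 18 Sertoli cell markers that median was 0.15 in the knockdown and 0.84 in WT, and Clu, a secreted chaperone, stood at 2506 and 3007 CPM in the knockdown libraries and at 110 and 301 CPM in the WT libraries. For the macrophage markers it was -1.11 in the knockdown and 0.21 in WT, and Lyz2, a lysozyme, stood at 61.4 and 17.1 CPM in the knockdown libraries and at 2.80 and 3.34 CPM in the WT libraries. Mrc1, the mannose receptor, departed from that order, at 42.8 and 62.4 CPM in the knockdown libraries and 3.01 and 9.91 CPM in the WT libraries. For the peritubular and stromal markers the median log2 ratio was -1.04 in the knockdown and 1.01 in WT, and for the endothelial markers 0.86 and 0.92. The part of these cells in the differences of the AP-1 genes between replicates was not tested.

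**Figure D3:**
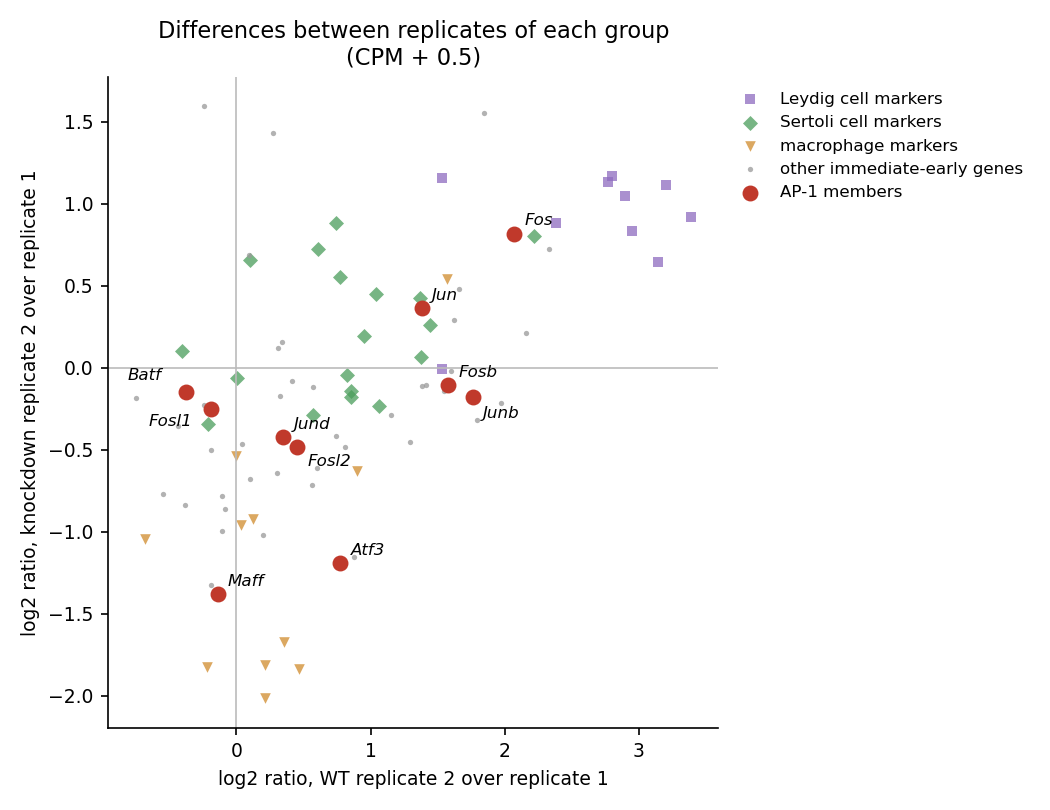
Each point is a gene, with the log2 ratio of WT replicate 2 to replicate 1 on the horizontal axis and that of knockdown replicate 2 to replicate 1 on the vertical axis, both with 0.5 CPM added. Fos (2.07 and 0.82) lies on the side of the Leydig cell markers and close to Gata4 (2.22 and 0.80), a Sertoli cell marker. Atf3 (0.77 and -1.19) and Maff (-0.14 and -1.38) lie low on the vertical axis, and Jun, Fosb and Junb lie between these and Fos on that axis.

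Between the groups, the marker lists moved with the members. All 18 Sertoli cell markers, all 10 Leydig cell markers, 10 of 11 tested peritubular and stromal markers, 10 of 12 macrophage markers and 3 of 8 endothelial markers rose in the knockdown (edgeR, adjusted p under 0.05), against 27.4% of all genes tested. Of 12 spermatogonia markers 9 rose. The Leydig count fell to 3 without knockdown replicate 2, and the macrophage count to 6 without knockdown replicate 1. The endothelial count was 5 without knockdown replicate 1 or WT replicate 2, 1 without knockdown replicate 2 and 0 without WT replicate 1. No Sertoli, Leydig or pachytene marker was at 0 in any library. Lymphocyte markers were low, summing to 7.41 and 5.26 CPM in the knockdown libraries and to 13.0 and 11.2 CPM in the WT libraries, with 2 of the 6 tested higher (1 when any single library was left out) and 3 lower, and Cd8a, a marker of cytotoxic T cells, had no count in either WT library and 8 counts and 0 counts in the knockdown libraries. Macrophage markers summed to 249.3 and 128 CPM in the knockdown libraries and to 16.8 and 27.0 CPM in the WT libraries. Whether these cells carry the AP-1 transcripts was not tested.

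The summed level of the 10 AP-1 genes was 0.618 and 0.563 times that of the Sertoli cell markers in the knockdown libraries, and 0.465 and 0.599 times in the WT libraries, so the groups overlapped on that scale. Relative to the Leydig cell markers it was 1.68 and 0.929 times in the knockdown libraries and 1.03 and 0.416 times in the WT libraries, and the groups overlapped again. The members parted on the first scale, which was chosen after the marker sums were seen. Per 1000 CPM of Sertoli cell markers, Fos stood at 89.6 and 139 CPM in the knockdown libraries and at 75.6 and 157 CPM in the WT libraries. Jund stood at 111 and 72.6 CPM in the knockdown libraries and at 125 and 77.6 CPM in the WT libraries. Both overlapped. Jun was lower in both knockdown libraries, at 101 and 115 CPM, than in the WT libraries, at 123 and 157 CPM.

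Atf3, Fosl2 and Maff were higher on that scale too. Atf3 stood at 19.5 and 7.45 CPM per 1000 CPM of Sertoli cell markers in the knockdown libraries and at 3.42 in each of the WT libraries, a ratio of means of 3.94. Fosl2 stood at 14.6 and 9.12 CPM in the knockdown libraries and at 4.42 and 3.25 CPM in the WT libraries, a ratio of means of 3.09. Maff stood at 9.91 and 3.28 CPM in the knockdown libraries and at 3.02 and 1.25 CPM in the WT libraries, with a similar ratio of 3.09, though knockdown replicate 2 was only just above WT replicate 1. Fosb and Junb were also higher in both knockdown libraries, with ratios of means of 1.495 and 1.49, and Junb by a narrow margin, at 111 and 85.8 CPM in the knockdown libraries against 49.1 and 82.8 CPM in the WT libraries. In all, 5 of the 10 genes lay above, 2 below and 3 overlapped, and of all genes tested 2.55% lay above and 86.2% below on this scale. The divisor was 4874 and 5551 CPM in the knockdown libraries and 296.5 and 609.9 CPM in the WT libraries. A gene that did not rise therefore falls below by the division itself. As the 10 genes were chosen with their rise known, the shares of all genes are no baseline for them. The Sertoli sum leans on a few genes, above all Clu and, in WT, Tjp1. Tjp1 stood at 143 and 237 CPM in the knockdown libraries and at 72.8 and 111 CPM in the WT libraries. Its log2 fold change of 1.05 was below the list median of 3.94, so it weighs more in the WT sums. With Tjp1 left out of the sums, the groups of Fosb, Junb and Maff overlap, so their order on this scale rests on that marker. Atf3 and Fosl2 stay higher in both knockdown libraries without it. No test was run on this scale.

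**Figure D4:**
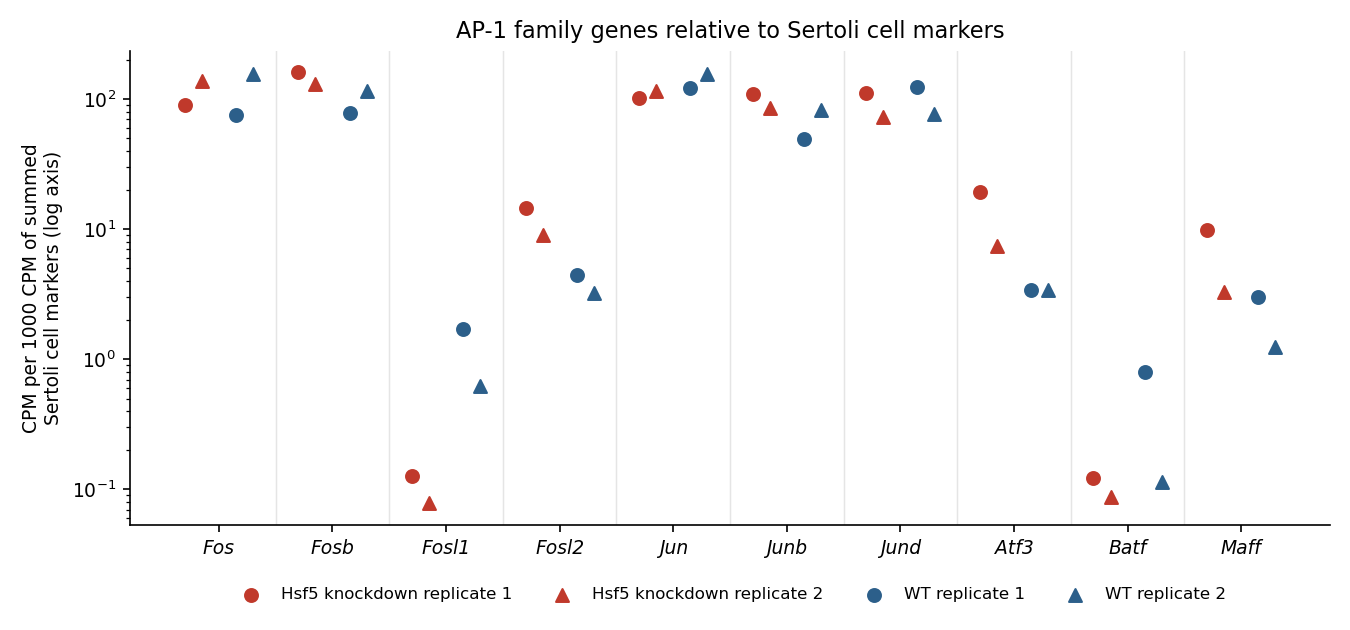
CPM of each gene per 1000 CPM of the summed Sertoli cell markers of the same library, on a log axis, with red points for the Hsf5 knockdown libraries and blue points for the WT libraries. The groups of Fos, Jund and Batf overlap, those of Fosl2 and Atf3 are apart with the knockdown higher, and Jun and Fosl1 are lower in the knockdown.

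The other immediate-early genes, a list of 40 that shares no gene with the family, rose in the same libraries. In the knockdown 32 of the 40 rose, 1 (Arc) fell and 7 did not pass, or 80% higher against 27.4% and 2.5% lower against 33.5% of all genes tested, and their median log2 fold change was 3.32. Klf6, a zinc finger factor, stood at 132 and 98.7 CPM in the knockdown libraries and at 2.27 and 4.14 CPM in the WT libraries (log2 fold change 5.17, SE 0.43; edgeR, adjusted p = 2.22e-05). Egr2, another zinc finger factor, stood at 37.2 and 35.1 CPM in the knockdown libraries and at 0.656 and 1.04 CPM in the WT libraries, a log2 fold change of 5.41 (SE 0.47). Ier2, an early-response gene of the nucleus, stood at 241 and 172 CPM in the knockdown libraries and at 6.68 and 12.1 CPM in the WT libraries, a log2 fold change of 4.46 (SE 0.41). Sertoli cell markers, with a median log2 fold change of 3.94, were higher in the same libraries.

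Arc and a few others behaved differently. Arc, an activity-regulated gene of neurons, stood at 10.2 and 16.8 CPM in the knockdown libraries and at 344 and 366 CPM in the WT libraries, a log2 fold change of -4.72 (SE 0.38; edgeR, adjusted p = 1.84e-05). The circadian gene Per1 stood at 135 and 151 CPM in the knockdown libraries and at 131 and 166 CPM in the WT libraries (log2 fold change -0.05, SE 0.29), and Csrnp1 at 184 and 91.7 CPM in the knockdown libraries and at 81.0 and 74.97 CPM in the WT libraries. Neither passed. Between the WT replicates, 13 of the 40 were at least 2-fold higher in WT replicate 2, against 5.88% of all genes tested, and none was 2-fold higher in WT replicate 1.

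**Figure D5:**
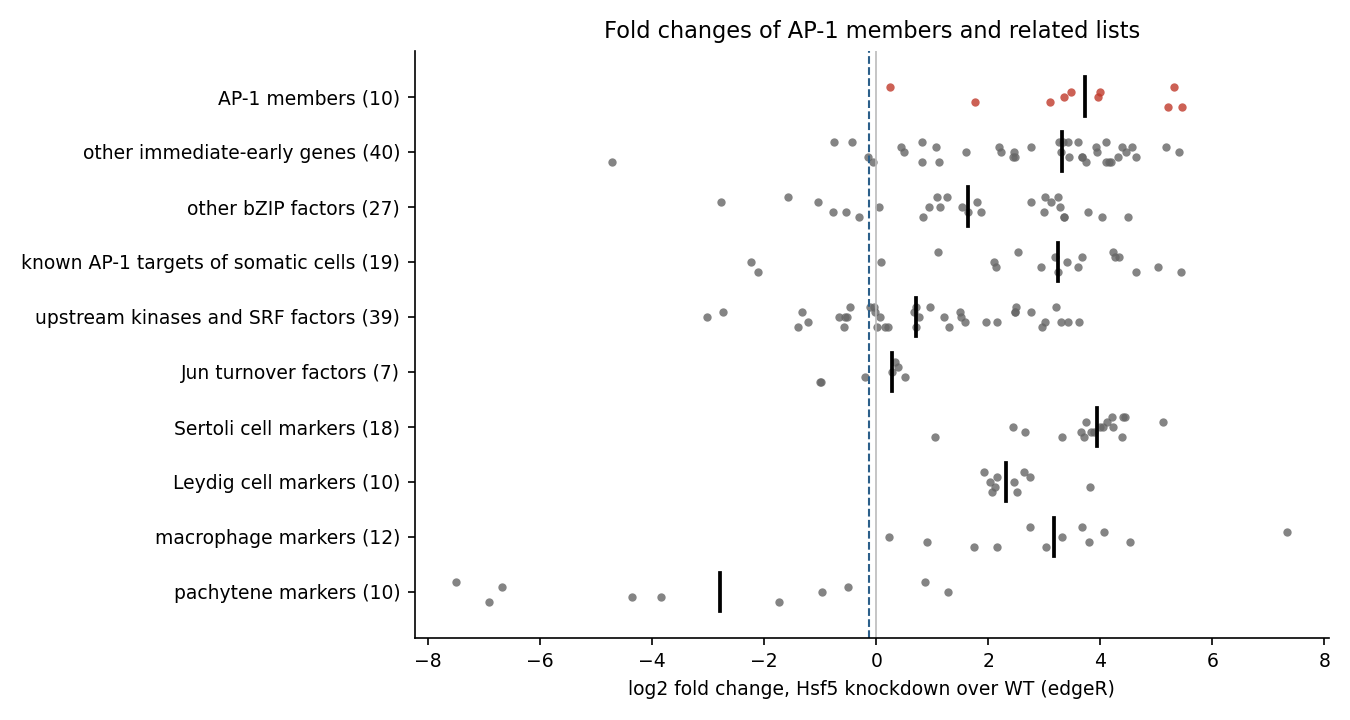
Fitted log2 fold changes of Hsf5 knockdown over WT for the tested genes of each list (number in brackets), with a black bar at the median of the list and a dashed line at the median of all genes tested, -0.12. The AP-1 genes have a median of 3.72, the other immediate-early genes of 3.32, Sertoli cell markers of 3.94 and pachytene markers of -2.78, and the macrophage marker farthest to the right had no count in WT, so its fitted value has no fixed size.

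Other genes of the same protein class moved in both directions. Of 28 further bZIP genes 27 were tested, of which 17 rose, 3 (Atf2, Crem and Ddit3) fell and the remaining 7 missed the threshold, at a median log2 fold change of 1.63. The shares were 63% higher and 11.1% lower, beside 27.4% and 33.5% of all genes tested. Atf2 was near the threshold (edgeR, adjusted p = 0.0409), and 2 of the bZIP genes fell with library totals only or with no filter on low counts. Mafk, a small MAF protein like Maff, stood at 75.4 and 63.8 CPM in the knockdown libraries and at 5.04 and 8.65 CPM in the WT libraries (log2 fold change 3.35, SE 0.39; edgeR, adjusted p = 0.000147). Nfil3, a bZIP repressor, rose by 4.03 (SE 0.49) and Nfe2l2, the regulator of the oxidative stress response and a partner of small MAF proteins, by 2.75 (SE 0.41) on the log2 scale. Crem, whose activator form drives genes of spermatids, fell, at 32.95 and 20.1 CPM in the knockdown libraries and 206 and 155 CPM in the WT libraries (log2 fold change -2.77, SE 0.35; edgeR, adjusted p = 0.000229). Atf1, a CREB relative, stood at 173 and 139 CPM in the knockdown libraries and at 211 and 173 CPM in WT. It was not past the threshold, nor was Atf7 (log2 fold change 0.84, SE 0.40).

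Of the kinases and factors that act upstream of Fos and Jun, 18 of 39 rose, 5 fell and the remaining 16 missed the threshold, at a median log2 fold change of 0.72. That is 46.2% higher and 12.8% lower, beside 27.4% and 33.5% of all genes tested. Mapk14, a p38 kinase, stood at 67.2 and 75.7 CPM in the knockdown libraries and at 5.69 and 8.86 CPM in the WT libraries (log2 fold change 3.30, SE 0.37; edgeR, adjusted p = 0.00012), and Map2k4, which activates JNK and p38 kinases, rose by 3.20 (SE 0.39) on the log2 scale. Rps6ka3, an X-linked kinase downstream of ERK, rose by 3.42 (SE 0.45). Mapk10, the JNK gene known from neurons and testis, fell, at 7.62 and 8.97 CPM in the knockdown libraries and 68.0 and 66.3 CPM in the WT libraries (log2 fold change -3.02, SE 0.34; edgeR, adjusted p = 0.000113). Map2k2 and Map2k7, kinases of the ERK and JNK branches, had log2 fold changes of -0.53 (SE 0.31) for Map2k2 and -0.66 (SE 0.28) for Map2k7, neither past the threshold.

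Of 7 genes for the turnover of JUN protein, 2 fell and none rose, and the 28.6% that fell is near the 33.5% of all genes tested. With library totals as the only scaling 3 rose and none fell. The 2 were Cop1, a ubiquitin ligase, at 93.2 and 71.6 CPM in the knockdown libraries and 175 and 153 CPM in the WT libraries (log2 fold change -0.99, SE 0.29; edgeR, adjusted p = 0.0153), and Fbxw7, the substrate receptor of another, at 39.9 and 52.6 CPM in the knockdown libraries and 85.2 and 99.8 CPM in the WT libraries. Neither fell without WT replicate 2, where the count was 0, and 1 did without WT replicate 1 or without knockdown replicate 1. Ddb1, at 838 and 710 CPM in the knockdown libraries and 503 and 677 CPM in the WT libraries, and Cul4a, both of a cullin ligase, did not pass.

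Genes known as AP-1 targets in somatic cells were mostly higher. Of 25 listed, 19 were tested, of which 15 rose, 2 (Tnc and Fgf7) fell and the remaining 2 missed the threshold, at a median log2 fold change of 3.24. Of those tested 78.9% were higher and 10.5% lower, beside 27.4% and 33.5% of all genes. These shares leave out the 6 targets that were too low to test. Of them Mmp1a and Mmp10 had no count in any library. Mmp3, Mmp13, Areg and Il6 had few, with the most, 63 counts, for Il6 in knockdown replicate 1. Without WT replicate 1 or either knockdown library, 1 fell. Vim, the intermediate filament of mesenchymal and Sertoli cells, stood at 363 and 282 CPM in the knockdown libraries and at 8.85 and 24.9 CPM in the WT libraries (log2 fold change 4.26, SE 0.50; edgeR, adjusted p = 0.000151). Timp1, an X-linked inhibitor of metalloproteases, rose by 5.03 (SE 0.67), Ets1, a transcription factor, by 4.22 (SE 0.53) and Cdkn1a, a cell cycle inhibitor, by 3.67 (SE 0.44) on the log2 scale. Hbegf, a growth factor, stood at 5.10 and 3.13 CPM in the knockdown libraries and at 4.98 and 2.82 CPM in the WT libraries, a log2 fold change of 0.08 (SE 0.56) that was not past the threshold. Several of these genes are also expressed by Sertoli and stromal cells, whose markers were higher in the same libraries. The part of these cells in the differences of the AP-1 targets was not tested.

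The nearest annotated protein-coding gene on each side of a member in GRCm38.p6, 19 genes outside the family, was called higher in 9 cases, lower in 5 and neither in 5 (median log2 fold change 0.83), where 27.4% of all genes tested were higher and 33.5% lower. Fos and Batf lie on either side of Jdp2, a bZIP repressor of AP-1, which had 2.90 and 2.52 CPM in the knockdown libraries and 0 and 0.243 CPM in the WT libraries. Next to Jund, Iqcn fell by 6.19 (SE 0.40) on the log2 scale, and next to Fosb neither Rtn2 nor Ercc1, a DNA repair gene, passed. 3 of the members overlap a gene on the opposite strand in GENCODE M21. The strand setting of the counts is not given, so whether reads from the shared stretch were told apart by strand is not known. Junos, opposite Jun, had 96 and 81 counts in the knockdown libraries and 260 and 130 counts in the WT libraries, against 23323 and 26263 counts of Jun in the knockdown libraries and 1222 and 2751 in the WT libraries. Prdx2, a peroxiredoxin gene opposite Junb, had 6239 and 5329 counts in the knockdown libraries and 409 and 642 in the WT libraries, and Ccdc85b, opposite Fosl1, had 746 and 472 counts in the knockdown libraries and 35 and 31 in the WT libraries, more than Fosl1 itself in each.

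The genes most like Fos, Jun and Atf3 across the 4 libraries were sought among 11701 tested genes with a mean of at least 5 CPM, as those with the smallest Euclidean distance of centred log2 CPM. For Fos they were Gata4, a Sertoli and Leydig cell factor that is on the Sertoli list, at a distance of 0.116, then Stard8, Epas1, Slc30a2 and Scd2 (0.179). Gata4 stood at 66.1 and 116 CPM in the knockdown libraries and at 2.89 and 15.3 CPM in the WT libraries. For Jun they were Btbd3 (0.0402), Abcd3, Tmem255a, Nisch and Hgsnat (0.0946). For Atf3 they were Sdc4 (0.367), Nfkbia, the inhibitor of NF-kB, Klf6, Icam1, an adhesion molecule, and Fosl2 (0.573), so that the nearest genes of Atf3 were farther away than those of Fos or Jun. Nfkbia stood at 199.96 and 115 CPM in the knockdown libraries and at 2.18 and 5.25 CPM in the WT libraries. With 4 libraries, such a distance describes a shared pattern over 2 groups of 2 and no more.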

How the data were processed

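Polyadenylated RNA of 2 Hsf5 knockdown and 2 WT libraries was measured. The authors deposited raw read counts per gene, 1 column per library. Per the submitters' processing notes, the tools were HISAT2 2.2.1 and featureCounts 1.5.3, with Trim Galore 0.6.10 and DESeq2 1.46.0 also named, and the build was mm39. Annotation, strand setting and the handling of multimapping reads: not given in the sources used here.

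The count test was edgeR 4.0.16 (R 4.3.3), quasi-likelihood, on TMM-scaled libraries. Of 36809 genes with any read, filterByExpr retained 23594, and p-values were adjusted over all of these by the Benjamini-Hochberg method, with a threshold of 0.05. Each standard error is an approximation, |log2 fold change| divided by the root of F. The fit was also run on simulated counts in which few genes changed, equally up and down. Far more genes differed in these data, so that run does not check the scaling used here. Exon lengths are the union of GENCODE M21 exons (GRCm38), matched by symbol. No gene list was tested as a set.

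The members and lists were chosen with earlier results of these data known. The text names the members, Hsf5, per related list up to 4 genes past 0.05 with the smallest p and up to 2 of the highest level that did not pass, the 5 nearest patterns of Fos, Jun and Atf3, and up to 2 genes of the highest mean level per marker list. Genes that fell in a list, untested AP-1 targets, neighbours, overlapping genes, Sycp1, Cd8a and Tjp1 were named after their values were seen. A gene that the rule selects is not reported here. Alternatives were size factors of DESeq2 1.42.0 in edgeR, scaling by library totals only, 2 other filters (none, and an average level of 1 CPM or more), DESeq2's Wald test, a block for the shared replicate numbers, omission of 1 library at a time and, for ratios between WT replicates, 0.1 CPM added in place of 0.5. The labels do not say that the replicate numbers pair libraries.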

Additional observations from a re-analysis of the deposited data

How the results depend on the processing

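Under all 10 alternatives each of the 10 AP-1 genes kept the direction of its fold change. Fosl1 and Batf had no value where a mean of at least 1 CPM was required. The genes were chosen with their fold changes known, so a kept direction is a description and no test. With library totals only the log2 fold change of Batf was 2.19. The range was 2.64 to 4.77 for Fos, with WT replicate 1 or 2 left out at its ends, 4.804 to 6.09 for Atf3 and 4.53 to 5.86 for Maff. The median of all genes was 0.31, against -0.12, with library totals only, where 8121 genes were higher and 6680 lower, against 6467 and 7902. With the replicate block 2 of the other immediate-early genes and 8 upstream genes fell, against 1 and 5, and 1 lymphocyte marker was higher, against 2; the correlation of the deviations of same-numbered libraries was 0.16 over genes, and the numbers are not known to pair them. Of the Jun turnover genes 3 were higher and 0 lower with library totals only, where 1 AP-1 target fell. Leaving out 1 library gave 0 to 2 lower turnover genes, 1 to 2 lower AP-1 targets, 3 to 10 higher Leydig, 0 to 5 higher endothelial, 6 to 10 higher macrophage and 1 higher lymphocyte marker, a count that was also 1 with a mean of at least 1 CPM and with the DESeq2 Wald test. The cause was not tested. A library left alone in its group was assumed to vary like the other group. At 2 to 29 counts a library, the depth limits what Fosl1 and Batf can show.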
